A study of Mus musculus with 6 samples.

Results

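Cxcl12 was examined together with its receptors Cxcr4 and Ackr3 and with 7 chemokine genes that epithelia can make, namely Cxcl1, Cxcl2, Cxcl5, Cxcl16, Cx3cl1, Ccl2 and Ccl20, giving 10 members among the 55809 genes counted. The members were chosen by gene symbol after Cxcl12 had been seen to be far higher with BMP7 in these same libraries, so the BMP7 against Ctrl values of the members are given as a description, with no p-value, and the question put to them was whether Cxcl12 rose alone. The libraries were made from mRNA of HC11, a mouse mammary gland epithelial cell line that the study used as a luminal model, grown in medium supplemented with BMP7 protein (group BMP7, 3 libraries, named replicates 1, 3 and 4 after their columns) or in medium without BMP7 (group Ctrl, 3 libraries, replicates 1, 2 and 3). All 6 libraries came from this 1 line, with no genetic change named in the labels, and the methods have HC11 cells starved before stimulation. With them the study looked for the secreted signal that luminal cells, the epithelium lining the mammary ducts, send to basal cells when BMP7 acts on them.

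Chemokines are small secreted or membrane-bound proteins that guide migrating cells through G protein-coupled receptors. CXCL12 signals through CXCR4, while ACKR3 is an atypical receptor that binds CXCL12, couples to arrestins and removes the ligand from the surroundings. In many tissues, the mammary gland included, CXCL12 is best known as a product of stromal fibroblasts, whereas CXCL1, CXCL2 and CXCL5 attract neutrophils, CCL2 attracts monocytes, CCL20 attracts cells bearing CCR6, and CXCL16 and CX3CL1 are made as membrane-anchored proteins that proteases can shed. BMP7 is a ligand of the BMP family, whose receptors phosphorylate SMAD1/5, and NF-kB is the transcription factor family best known for switching on the inflammatory chemokines.

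The stretches before the gene starts that hold a motif of either pathway are shown so that the letters upstream of Cxcl12 can be set beside those of the other members, taken from RefSeq on GRCm38.p6, which held 7 of the 10 members (not Cxcl5, Cxcl16 or Ccl2). The motifs searched in the 250 bases before each start were GGCGCC, a palindrome known from BMP-responsive elements, and GGNNTTTCC on both strands, a form of the NF-kB site. Capitals mark the matches.
Cxcl12: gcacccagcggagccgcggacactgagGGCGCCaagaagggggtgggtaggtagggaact
Cx3cl1: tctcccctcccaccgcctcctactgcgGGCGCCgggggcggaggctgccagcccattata
Cxcl1: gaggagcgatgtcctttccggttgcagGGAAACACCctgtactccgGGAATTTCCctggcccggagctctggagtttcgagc
Cxcl2: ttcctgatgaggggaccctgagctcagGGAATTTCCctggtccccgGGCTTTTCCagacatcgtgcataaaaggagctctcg
Ccl20: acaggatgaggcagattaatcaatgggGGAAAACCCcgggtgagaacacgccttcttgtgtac
The Cxcl12 window lies at chr6:117168385-117168444 on the plus strand, with its match starting 123 bases before the gene start. That of Cx3cl1 lies at chr8:94772118-94772177, also on the plus strand, with its match starting 35 bases before the start. The windows of Cxcl1 (chr5:90891129-90891210), Cxcl2 (chr5:90903776-90903857) and Ccl20 (chr1:83116659-83116721) are on the plus strand as well, and the NF-kB form started 89 and 70 bases before the start in Cxcl1, 96 and 77 in Cxcl2 and 80 in Ccl20. Neither run of letters was found in these bases of Ackr3 or Cxcr4. Of 32851 mouse promoters in the same table, 9.59% held GGCGCC and 4.93% held GGNNTTTCC in the same 250 bases, so the GGCGCC match in particular is a common one and is only a description.

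Depth ranged from 14607938 to 23748970 counted fragments per library, with BMP7 replicate 1 the shallowest, and nothing in the labels says that the libraries came from separate cultures, so that p-values measure the spread between these libraries, which may be technical. Values are CPM (counts scaled to library size), scaled by trimmed mean of M values (TMM). The quasi-likelihood test of edgeR was run, with p-values adjusted by Benjamini-Hochberg (BH) over the 15733 genes with enough counts, and a gene is called higher or lower where the adjusted p was under 0.05 and the fold change over 1.2, the thresholds the study used. In bulk RNA, fewer cells of a type and less RNA per cell cannot be told apart. Epithelial genes were abundant in all 6 libraries, and of 8 epithelial markers 7 were tested, 1 was called higher and 3 lower. Over all genes tested 5.99% were called higher and 5.38% lower. The adhesion gene Epcam stood at 631 to 647 CPM in Ctrl and at 460 to 499 CPM with BMP7, and Cdh1, which encodes E-cadherin, at 970 to 992 CPM and at 787 to 839 CPM, both called lower. The basal keratin Krt14 was called higher (3394 to 3631 CPM in Ctrl, 4284 to 5258 CPM with BMP7) and the luminal keratin Krt18 lower (48.5 to 51.1 CPM, 27.1 to 35.7 CPM). Krt5 (2423 to 2818 CPM), Krt8 (57.9 to 68.9 CPM) and Cldn4 were not called, and Krt19 never exceeded 8 counts. Krt14 and Krt5, by which the study marks basal cells, were thus far above Krt8 and Krt18, its luminal markers, in all 6 libraries. These keratin levels go against the luminal label the study gives the line. The BMP target genes Id1, Id2, Id3, Smad6 and Smad7 were all 5 higher with BMP7, from Smad6 at 2.21 ± 0.11 to Id3 at 6.31 ± 0.12 (log2 fold change ± SE).

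Cxcl12 did not rise entirely alone among the members, but no other member came near its change: of the 8 members with enough counts to test, Cxcl12 and Ackr3 were called higher, Cx3cl1 was called lower, and Cxcr4, Cxcl1, Cxcl2, Cxcl5 and Cxcl16 were not called. Ccl2 and Ccl20 were too low to test. Over all genes tested 11.4% were called, 5.99% higher and 5.38% lower, and nothing is read from the members' 3 calls against it because the rule used this contrast. The BMP7 and Ctrl libraries did not overlap for 4 of the 8 tested members (Cxcl12 and Ackr3 above, Cxcl1 and Cx3cl1 below), against 29.8% of all genes tested. The median log2 fold change of the tested members was -0.26, against -0.0062 over all genes tested.

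**Figure D1:**
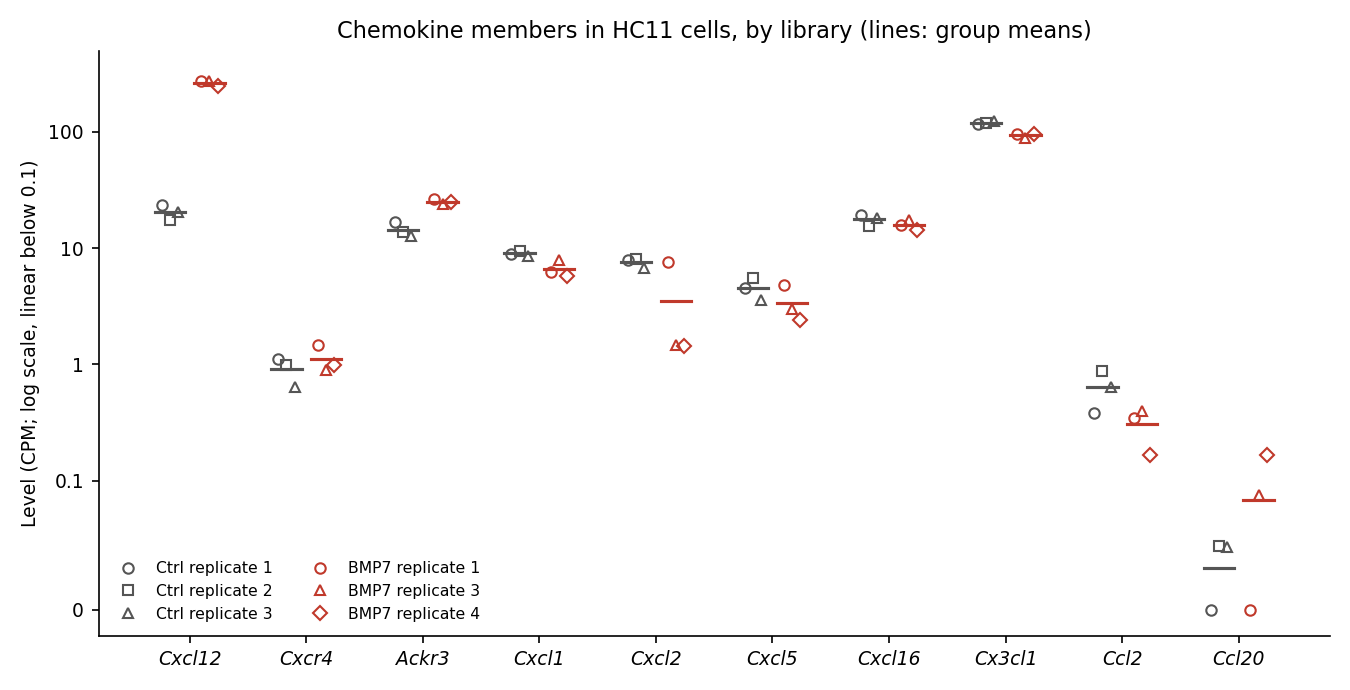
Level of each member in CPM (vertical axis, logarithmic above 0.1 and linear below) in the 3 Ctrl libraries (grey) and the 3 BMP7 libraries (red), with a short line at each group mean. Cxcl12 lies between 248 and 273 CPM in the BMP7 libraries and at or below 23.5 CPM in the Ctrl libraries, while Cxcl2 is split within the BMP7 group.

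Cxcl12 (mm39, chr6:117145496-117158328, plus strand) stood at 23.5, 17.5 and 20.5 CPM in Ctrl replicates 1, 2 and 3, from 489, 356 and 420 counts. In BMP7 replicates 1, 3 and 4 it stood at 273, 273 and 248 CPM, from 3918, 6133 and 4495 counts. The groups were far apart, with the lowest BMP7 library 10.5 times the highest Ctrl library, and the 3 BMP7 libraries lay close together (264 ± 14.6 CPM, SD, n = 3, against 20.5 ± 3.02 in Ctrl). The fitted log2 fold change was 3.69 ± 0.09 (SE), a 12.9-fold ratio of the group means. By size of log2 fold change it ranked 15 of the 15733 genes tested, and 9 of the 14101 that averaged 1 CPM or more. Its gain of 244 CPM ranked 38, so Cxcl12 was among the genes that gained most reads as well as most in proportion. CPM is not divided by exon length, so the rank by gain favours long genes.

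Compared per kilobase of exon, the Ctrl level of Cxcl12 exceeded that of 32.2% of the genes tested, and its BMP7 level exceeded that of 88.5%. BMP7 replicate 1 was as high in Cxcl12 as the others.

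Ackr3, the scavenging receptor (chr1:90131702-90144473, plus strand), stood at 16.9, 13.7 and 12.7 CPM in the Ctrl libraries and at 26.3, 24.0 and 24.8 CPM in the BMP7 libraries. The lowest BMP7 library was 1.42 times the highest Ctrl library, so the groups did not overlap. The log2 fold change was 0.79 ± 0.11 (SE), and Ackr3 was called higher in all 12 alternative fits, as was Cxcl12.

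Cxcr4, the signalling receptor (chr1:128515936-128520030, minus strand), was low throughout. It stood at 1.11, 0.983 and 0.636 CPM in the Ctrl libraries and at 1.46, 0.889 and 0.992 CPM in the BMP7 libraries, from 13 to 23 counts each. These groups overlapped, and the log2 fold change of 0.26 ± 0.36 (SE) was not called. The ratio of the summed counts, scaled to depth, was 1.18 with a 95% interval of 0.804 to 1.73 that covers counting error only. Spread between libraries is not in that interval, so its upper bound does not exclude a change like the 1.74-fold ratio of means of Ackr3. Per kilobase, Ackr3 exceeded Cxcr4 by 7.51 to 10.8 times in the Ctrl libraries and by 9.72 to 14.6 times in the BMP7 libraries.

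Cx3cl1, the membrane-anchored ligand fractalkine (chr8:95498637-95509055, plus strand), was the most abundant chemokine ligand of the Ctrl libraries per kilobase. It stood at 118, 120 and 123 CPM in Ctrl and at 95.8, 89.1 and 96.7 CPM with BMP7. Each BMP7 library was below each Ctrl library, and the mean fell by 22.1%. The log2 fold change of -0.36 ± 0.06 (SE) was called lower in all 12 alternative fits, though it is smaller than 1.5-fold.

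Cxcl16, the other membrane-anchored ligand (chr11:70344809-70350810, minus strand), stood at 19.5, 15.6 and 18.1 CPM in Ctrl and at 15.8, 17.3 and 14.5 CPM with BMP7. The groups overlapped and the log2 fold change of -0.16 ± 0.11 (SE) was not called. A share of 18.3% of its exon bases is also annotated to Zmynd15, and since strand was not used in counting, reads from such bases were assigned to neither gene.

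The neutrophil attractants Cxcl1 (chr5:91039100-91040974), Cxcl2 (chr5:91051730-91053797) and Cxcl5 (chr5:90907219-90909483) are neighbours on the plus strand of chromosome 5. Cxcl1 stood at 8.96, 9.54 and 8.56 CPM in Ctrl and at 6.27, 7.96 and 5.78 CPM in BMP7 replicates 1, 3 and 4. The BMP7 values were all below the Ctrl values, but the log2 fold change of -0.42 ± 0.15 (SE) was not called. It was called in 2 of the 12 alternative fits, among them the one without BMP7 replicate 3, where it was -0.58.

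Cxcl2 stood at 7.99, 8.01 and 6.70 CPM in Ctrl, and at 7.67, 1.47 and 1.43 CPM in BMP7 replicates 1, 3 and 4. BMP7 replicate 1 was thus inside the Ctrl range, and the other two BMP7 libraries were at 19.4% and 18.9% of the Ctrl mean. The log2 fold change of -1.21 ± 0.41 (SE) was not called. Without BMP7 replicate 1 it was -2.38 and called, and with BMP7 replicate 1 alone it was 0.02, so 1 library decides the value. A stretch of 116 bases of Cxcl2 transcripts matches Cxcl3 at 98.3% identity, which can make reads from either gene ambiguous.

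Cxcl5 stood at 4.57, 5.51 and 3.62 CPM in Ctrl, and at 4.81, 2.98 and 2.42 CPM with BMP7. Here too BMP7 replicate 1 lay among the Ctrl libraries and the other two lay below them. The log2 fold change of -0.45 ± 0.24 (SE) was not called, was -0.75 and called without BMP7 replicate 1, and was 0.08 with that library alone. Of its transcript, a stretch of 108 bases matches Dock3 at 95.4% identity.

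The monocyte attractant Ccl2 (chr11:81926397-81928279) had 8, 18 and 13 counts in the Ctrl libraries and 5, 9 and 3 in the BMP7 libraries. The ratio of the summed counts, scaled to depth, was 0.488 with an interval of 0.259 to 0.883 for counting error only, and the CPM values of the groups overlapped. Ccl20 (chr1:83094487-83096888) had 0, 1 and 1 counts in Ctrl and 0, 2 and 3 with BMP7, at or under the floor of 3 counts in every library, so that no fold is given.

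**Figure D2:**
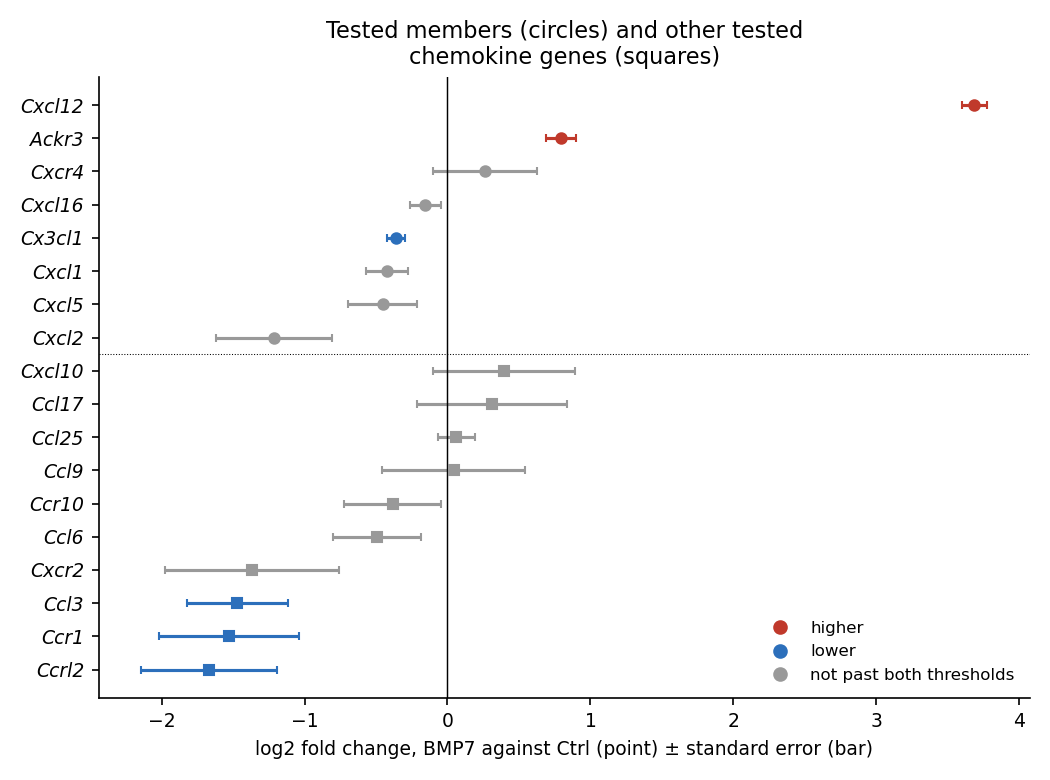
Fitted log2 fold change, BMP7 against Ctrl, of the 8 tested members (circles, above the dotted line) and of 10 of the 11 other tested chemokine ligand and receptor genes (squares), with bars of 1 standard error. Red marks genes called higher, blue genes called lower and grey genes not past both thresholds. Cxcl12 at 3.69 and Ackr3 at 0.79 are the members called higher, and Ccl3, Ccr1 and Ccrl2 at the bottom are called lower.

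The order of the members by level differed between the groups, for Cxcl12 and also for others such as Ackr3. Per kilobase of exon, the Ctrl order of mean levels was Cx3cl1 (30.6 CPM per kilobase), Cxcl16 (5.87), Cxcl1 (4.81), Ackr3 (4.30), Cxcl2 (3.66), Cxcl12 (2.51), Cxcl5 (2.45), Ccl2 (0.558), Cxcr4 (0.503) and Ccl20 (0.0230). In this order the neighbours Cxcl1 and Ackr3, Ackr3 and Cxcl2, Cxcl12 and Cxcl5, and Ccl2 and Cxcr4 overlapped between libraries. With BMP7 the order was Cxcl12 (32.3 CPM per kilobase), Cx3cl1 (23.9), Ackr3 (7.49), Cxcl16 (5.26), Cxcl1 (3.56), Cxcl5 (1.83), Cxcl2 (1.70), Cxcr4 (0.617), Ccl2 (0.268) and Ccl20 (0.0596), with overlap between Cxcl5 and Cxcl2 and between Cxcl2 and Cxcr4. Cxcl12 thus moved from the range of Cxcl5 to the first place, ahead of Cx3cl1.

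Summed over the 38 chemokine ligand genes of the list, the Ctrl libraries held 60.8, 61.2 and 60.3 CPM per kilobase and the BMP7 libraries 81.4, 75.1 and 71.1. Without Cxcl12 the sums were 57.9, 59.1 and 57.8 in Ctrl and 48.0, 41.8 and 40.8 with BMP7. The sum was therefore higher with BMP7 when Cxcl12 was counted and lower when it was not, without overlap in either case. Cxcl12 made up 4.13% ± 0.622 (SD, n = 3) of the sum in Ctrl and 42.7% ± 1.68 with BMP7, and Cx3cl1 went from 50.4% ± 1.42 to 31.6% ± 2.61. The ratio of Cxcl12 to Cx3cl1 per kilobase was 0.0961, 0.0700 and 0.0801 in the Ctrl libraries and 1.37, 1.47 and 1.23 in the BMP7 libraries.

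**Figure D3:**
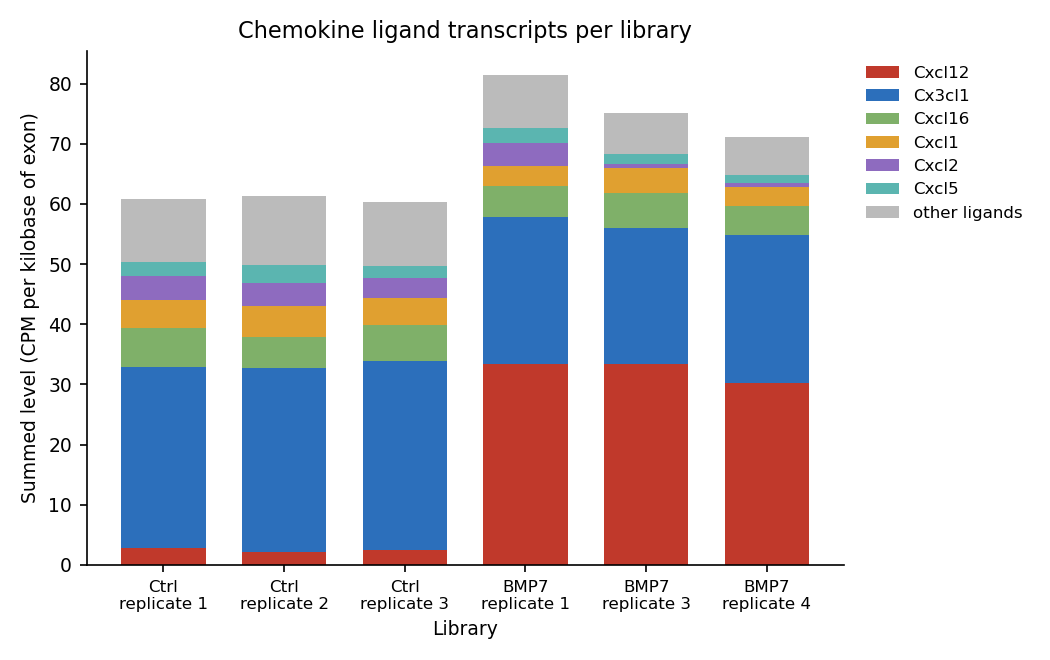
Summed level of the 38 chemokine ligand genes in each library (CPM per kilobase of exon, stacked bars), with 6 members in colour and the other ligands in grey. Cxcl12 fills 4.13% of the bar on average in the Ctrl libraries and 42.7% in the BMP7 libraries, and Cxcl2 is thinner in BMP7 replicates 3 and 4 than in replicate 1.

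Outside the members the list held 51 chemokine ligand and receptor genes, of which 28 had at most 3 counts in every library and 8 had none at all. Of the 11 that could be tested, edgeR called none higher and 3 lower, against 5.99% and 5.38% of all genes tested. At an unadjusted p under 0.05, 0 were higher and 4 lower, and DESeq2 called 0 higher and 2 lower. Ccl3, a ligand that attracts monocytes and macrophages, stood at 3.23, 3.39 and 3.57 CPM in Ctrl and at 2.44, 0.800 and 0.661 CPM in BMP7 replicates 1, 3 and 4 (log2 fold change -1.47 ± 0.35 SE, adjusted p = 0.00988). BMP7 replicate 1 was the nearest to Ctrl, and 34.7% of the exon bases of Ccl3 are shared with another annotated gene.

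Ccr1, a receptor for CCL3, stood at 1.78, 1.28 and 1.03 CPM in Ctrl and at 1.05, 0.267 and 0.220 CPM with BMP7 (-1.53 ± 0.49, adjusted p = 0.0482). Ccrl2, an atypical receptor that binds chemerin, stood at 1.59, 1.82 and 2.01 CPM in Ctrl and at 1.32, 0.356 and 0.165 CPM with BMP7 (-1.67 ± 0.48, adjusted p = 0.0284). For both receptors, as for Ccl3, it is BMP7 replicates 3 and 4 that were low. None of these calls was made without BMP7 replicate 3, where the log2 fold changes were -1.19 for Ccl3, -1.17 for Ccr1 and -1.36 for Ccrl2, and none with BMP7 replicate 1 alone, where they were -0.48, -0.38 and -0.44. Ccr1 and Ccrl2 each kept the call in 1 of the 6 fits that left out a library, the one without BMP7 replicate 1, and Ccl3 kept it in 5. By contrast Ccl25, picked out after its values were seen, stood at 8.67 to 11.7 CPM in Ctrl and at 9.90 to 11.1 CPM with BMP7 and was not called (0.06 ± 0.13).

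Some markers of leukocytes moved with these genes and others did not. Of the 9 macrophage markers 6 were tested and 2 were lower, against 5.38% of all genes tested. The summed level of the 9 was 42.6 to 46.2 CPM in Ctrl and 44.1, 23.8 and 22.2 CPM in BMP7 replicates 1, 3 and 4. Without Lyz2 the sum was 17.1 to 19.8 CPM in Ctrl and 21.6, 17.02 and 15.3 CPM with BMP7, so most of the drop was in that gene. Lyz2, the lysozyme gene of myeloid cells, stood at 25.5 to 26.6 CPM in Ctrl and at 22.5, 6.76 and 6.94 CPM with BMP7. Ptprc, the pan-leukocyte gene CD45, stood at 3.59 to 3.90 CPM in Ctrl and at 3.21, 1.07 and 0.992 CPM with BMP7, while the lymphocyte genes Cd3e, Cd4, Cd8a and Ms4a1 never exceeded 3 counts in a library. Itgam, an integrin gene of myeloid cells, was lower too, and Csf1r and Adgre1 were lowest in BMP7 replicates 3 and 4 but not called. Cd68, by contrast, stood at 10.9 to 11.6 CPM in Ctrl and at 15.6, 13.02 and 12.4 CPM with BMP7, above Ctrl in every library though not called, and C1qa, C1qb, C1qc and Mrc1 stayed under 1 CPM in all 6 libraries. In Cxcl2, Ccl3, Ccr1, Ccrl2, Lyz2, Ptprc and Itgam alike, BMP7 replicates 3 and 4 were the low libraries, and the part of leukocyte RNA in the Cxcl2 values and in the 3 calls was not tested.

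**Figure D4:**
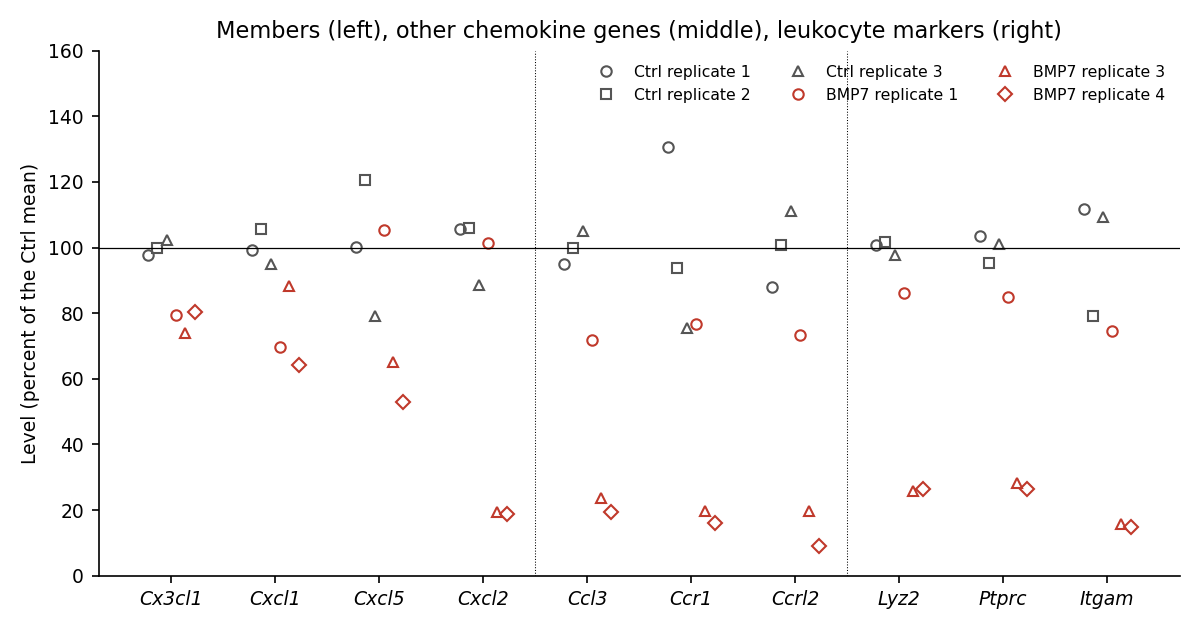
Level of 4 members (left), 3 other chemokine genes (middle) and the 3 leukocyte markers called lower (right) in each library, as a percent of the gene's Ctrl mean (horizontal line at 100). BMP7 replicates 3 and 4 stand at 19.4% and 18.9% for Cxcl2 and at 25.8% and 26.5% for Lyz2, with BMP7 replicate 1 at 101% and 86.1%, whereas for Cx3cl1 the 3 BMP7 libraries lie together at 74.0% to 80.3%.

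Fibroblast markers were also set beside Cxcl12, since stromal cells are its usual source. Of 10 such markers 7 were tested, 4 were higher and 1 lower, against 5.99% and 5.38% of all genes tested. The lower one was Col1a1, the most abundant. It stood at 65.1, 69.5 and 78.8 CPM in Ctrl and at 48.9, 58.1 and 52.6 CPM with BMP7, without overlap. Pdgfra was not called (log2 fold change 0.11 ± 0.08 SE). The summed level of the 10 markers was 115 to 126 CPM in Ctrl and 103, 122 and 121 CPM in BMP7 replicates 1, 3 and 4. Without Col1a1 and Pdgfra, which made up most of it, the sum was 7.42 to 9.29 CPM in Ctrl and 12.2, 22.0 and 20.7 CPM with BMP7. Dcn, which encodes the fibroblast proteoglycan decorin, stood at 1.73, 0.737 and 1.08 CPM in Ctrl and at 1.74, 4.44 and 4.90 CPM with BMP7, and Dpt at 0.530, 0.295 and 0.196 CPM and at 0.279, 2.40 and 1.98 CPM. Other markers were above all Ctrl libraries in BMP7 replicate 1 as well: Col1a2 stood at 3.76 CPM there against 1.06 to 1.62 in Ctrl, Col3a1 at 3.69 against 3.05 to 3.52 and Pdgfrb at 2.51 against 1.62 to 2.22, and in BMP7 replicates 3 and 4 they stood at 5.78 and 3.80, 5.47 and 6.004, and 2.89 and 3.19 CPM. Lum, Thy1 and Fap stayed under 1 CPM in all 6 libraries. Cxcl12 was as high in BMP7 replicate 1, at 273 CPM, as in BMP7 replicates 3 and 4, and the part of fibroblast RNA in its level was not tested.

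The 8 adipocyte markers summed to 11.2 to 18.9 CPM in Ctrl and to 20.6, 68.9 and 60.8 CPM with BMP7. All 6 tested markers were called higher, against 5.99% of all genes tested. For 3 of the 6 the groups did not overlap, against 29.8% of all genes tested. Adipoq, for one, stood at 0.639 to 1.16 CPM in Ctrl and at 1.05, 4.62 and 3.86 CPM in BMP7 replicates 1, 3 and 4. Of 5 endothelial markers Pecam1 was tested and higher, and the other 4 together never exceeded 0.622 CPM in a library. With BMP7 replicate 1 alone against Ctrl, a comparison chosen after seeing the data, Cxcl12 had a log2 fold change of 3.73 and Ackr3 of 0.87. These lie close to the values from all libraries. The part of adipocyte or endothelial RNA in the levels of Cxcl12 and Ackr3 was not tested.

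Of 18 partner genes, whose proteins bind, cut or transmit CXCL12 and its relatives, 16 were tested. Of these edgeR called 3 higher and none lower, against 5.99% and 5.38% of all genes tested. At an unadjusted p under 0.05, 3 were lower, and DESeq2 called 0 lower. The median log2 fold change of the 16 was 0.04. Adam10, a protease known to shed CX3CL1 and CXCL16 from the cell surface, stood at 340, 351 and 321 CPM in Ctrl and at 474, 508 and 485 CPM with BMP7, with no overlap (0.54 ± 0.06, adjusted p = 1.19e-05). Adam17, the other shedding protease, was not called (-0.03 ± 0.06). Mif, a cytokine that also binds CXCR4, stood at 48.8, 59.7 and 55.4 CPM in Ctrl and at 83.0, 64.4 and 64.9 CPM with BMP7, where replicate 1 was the highest (0.37 ± 0.10, adjusted p = 0.0168). It was called in 4 of the 6 fits that left out a library, and not without BMP7 replicate 1 (0.24) or without Ctrl replicate 1 (0.29). Hmgb1, a nuclear protein that can pair with CXCL12 outside the cell, stood at 188, 186 and 190 CPM in Ctrl and at 215, 280 and 204 CPM with BMP7, with replicate 3 far above the others (0.31 ± 0.09, adjusted p = 0.0317). Its value was 0.16 and not called without BMP7 replicate 3, and the call was kept in 2 of the 6 fits that left out a library.

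The 13 NF-kB genes, most of them feedback targets or subunits of the factor, moved in both directions. 2 were higher, 3 were lower and 8 were not called, with a median log2 fold change of 0.10. Over all genes tested 5.99% were called higher and 5.38% lower. The groups did not overlap for 7 of the 13 (2 above and 5 below Ctrl), against 29.8% of all genes tested. Nfkbiz, an atypical inhibitor protein that acts in the nucleus, stood at 57.8, 57.3 and 63.4 CPM in Ctrl and at 83.3, 93.0 and 82.7 CPM with BMP7 (0.54 ± 0.07, adjusted p = 4.52e-05). Bcl3, a related nuclear protein, was also higher without overlap (0.71 ± 0.12, adjusted p = 0.000424). Nfkbie, a cytoplasmic inhibitor, stood at 17.6, 17.5 and 17.6 CPM in Ctrl and at 11.2, 9.91 and 10.6 CPM with BMP7 (-0.74 ± 0.10, adjusted p = 8.98e-05). Nfkb2 and Relb, the subunits of the noncanonical pathway, were lower by less (-0.38 ± 0.06, adjusted p = 0.000422, and -0.38 ± 0.10, adjusted p = 0.02), and the call for Relb was kept in 2 of the 6 fits that left out a library. Nfkbia and Tnfaip3, the feedback inhibitors most used as readouts, were not called (0.17 ± 0.08 and -0.39 ± 0.13).

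The genes most like Cxcl12 over the 6 libraries were sought by Pearson's r of log2 CPM, among 14100 other genes averaging 1 CPM or more. They were Adamtsl3 (0.99936), Slc44a2 (0.99932), Mmp11 (0.99919), Fibin (0.99901) and Ddr1 (0.99858). The 6 libraries fall into the 2 groups, so that r mostly reflects the step between them, and 96 genes had an r over 0.99. All 5 were higher with BMP7, from 0.65 ± 0.06 for Slc44a2 to 2.40 ± 0.09 for Adamtsl3 on the log2 scale. Among the members the same r was 0.964 for Ackr3 and -0.977 for Cx3cl1.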

How the data were processed

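The sequenced libraries were poly(A) RNA of HC11 cells, 3 with BMP7 and 3 without. The authors aligned reads with subjunc (Subread 2.0.3, named in the submitters' processing notes) and deposited a table of raw counts per gene symbol, made by featureCounts 2.0.1 per the file headers, from read pairs over exons of an mm39 annotation, without strand and without reads mapping to several places or genes. The methods name mm10 for alignment, and coordinates here are those of the count table. The columns of the BMP7 group are numbered 1, 3 and 4 and the labels 1, 2 and 3, so columns were matched to the group only. The methods give a pair of stimulation times for HC11 cells, and which of them applies to these libraries is not given in the sources used here. 0 columns were left unused.

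From the counts, edgeR 4.0.16 (R 4.3.3; filterByExpr, TMM, quasi-likelihood test, BH adjustment, called at adjusted p under 0.05 and fold over 1.2) was fitted on all 6 libraries, with 4 residual degrees of freedom, and tested on simulated data. DESeq2 1.42.0, other scalings, filters and fold thresholds, and leaving out each library were alternatives. No pair of libraries of a group agreed within sampling noise (chi-square per degree of freedom 5.37 to 13.1). Intervals on single counts are exact and cover counting error only. BLAST 2.17.0 searched the members' GENCODE vM21 transcripts for matches of at least 95% identity over 100 bases.

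The members and lists were chosen with earlier results of these data known. The genes named are the 10 members, every called gene of the chemokine, partner and NF-kB lists, the most abundant tested ligand and receptor per kilobase in Ctrl, the BMP targets and the 5 genes most like Cxcl12. Other genes were named after their values were seen. Single values of some list genes are not reported here.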

Additional observations from a re-analysis of the deposited data

How the results depend on the processing

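Of 96 alternative log2 fold changes of the tested members, 89 kept their direction and their side of the thresholds, 5 passed them where the reported value did not, and 2 reversed. The reversed values were 0.0189 for Cxcl2 and 0.0753 for Cxcl5, both with BMP7 replicate 1 alone against Ctrl, a comparison chosen after seeing the data that assumes the lone library to vary like the Ctrl libraries. Cxcl12 ranged from 3.58 to 3.80, Ackr3 from 0.71 to 0.92 and Cx3cl1 from -0.38 to -0.32 over all alternatives. The number of members called was 3, and 3 to 5 when single libraries were left out (5 without BMP7 replicate 1, with Cxcl2 and Cxcl5 added), 5 with no filter on low counts, where Cxcl1 and Cxcl2 were added, and 2 at a fold over 1.5, where Cx3cl1 was lost. Of the chemokine genes outside the members 3 were called, 1 (Ccl3) with at least 10 counts in every library, 0 to 4 when single libraries were left out, and 0 with BMP7 replicate 1 alone. Over all genes 1788 were called, 780 at a fold over 1.5, and 1302 to 1966 when single libraries were left out. For the 21 other genes named by rule, 221 of 250 alternative values kept direction and call and 29 kept direction only. Why the values moved was not tested. No paired analysis was possible because the columns of the BMP7 group do not carry the replicate numbers of the labels. With 13 to 23 counts per library for Cxcr4 and fewer for Ccl2 and Ccl20, depth limits what can be said of these genes.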

Other observations

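Some further genes that leukocytes are known to make were low in BMP7 replicates 3 and 4 and not in BMP7 replicate 1. They are given here as values chosen after they were seen, and other such genes did not show this split. Cxcr2, the receptor of the CXCL1, CXCL2 and CXCL5 ligands, stood at 0.867, 0.885 and 1.08 CPM in Ctrl and at 0.976, 0.0444 and 0.220 CPM in the BMP7 group (replicates 1, 3 and 4 in this order), and was not called (-1.37 ± 0.61, log2 fold change ± SE). Mmp9, a gelatinase that can cut CXCL12, stood at 3.47, 3.44 and 3.08 CPM in Ctrl and at 3.42, 1.07 and 0.771 CPM with BMP7, and was not called (-1.01 ± 0.37). Cxcl3, the close relative of Cxcl2, had 13, 8 and 10 counts in Ctrl and 6, 1 and 3 with BMP7, and Ccl4, the neighbour of Ccl3 in function, had 12, 9 and 7 counts and 5, 3 and 0. Both were too low to test. By contrast Ccl17 stood at 0.342 to 0.639 CPM in Ctrl and at 0.139, 0.667 and 0.936 CPM in BMP7 replicates 1, 3 and 4, with replicate 1 the lowest. Ccl6 stood at 1.32 to 1.57 CPM in Ctrl and at 1.18, 0.889 and 1.05 CPM with BMP7, below Ctrl in replicate 1 as well. Neither was called.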
